A study of Prunus persica with 8 samples.

Results

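Genes that share most of their reads with other places in the genome were followed here in lateral shoot tips of weeping and standard trees of peach (Prunus persica). They are 319 of the 27864 genes in the deposited table. Each lies on scaffold 1 or on scaffolds 4 to 8, had at least 80 total exon reads over the 8 libraries, and had fewer than 50% of those reads placed at 1 position, here called unique reads. The genes were thus chosen by their own total and unique counts, summed over both groups, and not by the difference between groups. The 200 genes of highest mean level on these scaffolds were left out, which removed 14 of the 333 genes that met both limits. The other reads of the 319 genes, here called shared reads, also matched elsewhere in the genome.

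The study compared 4 trees of standard growth habit (trees 7, 8, 9 and 10) with 4 trees of weeping growth habit (trees 1, 2, 3 and 4). All 8 were mature, grown in a field at 1 station, and came from an F2 population that segregates for habit, so the trees of a group also differ from each other in the rest of their genome. Neither group carried a treatment. Each library was made from the branch tips of 1 tree and sequenced as unpaired reads of 50 bp. The deposited table has identifiers without gene names, and 0 of 27864 could be matched to RefSeq genes, so the tissue could not be checked against marker genes and most genes are given by position.

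Plant genomes carry many genes in tandem, as runs of neighbouring copies that arise by unequal crossing-over. Such families often serve defence, secondary metabolism or signalling at the cell surface, and their copies can be gained, lost or silenced separately, so that members of an F2 family may carry different sets. A short read from a stretch that is identical between copies cannot be given to one of them. A count of total reads can therefore move with a copy elsewhere, whereas unique reads come from the stretches in which a copy differs from the others. Reads from a copy that the reference lacks can still be placed in the copy most like it.

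Total exon reads per library ranged from 17011614 to 21584724, of which unique reads made up 94.8% over all genes. The 319 genes held 1420906 reads over the 8 libraries. They were 1.14% of the listed genes and held 0.946% of all reads but 11.7% of all shared reads. By the column names, lane 8 held weeping trees 3 and 4 and lane 6 the remaining 6 libraries, so lane 6 alone sets 4 standard against 2 weeping trees. Leaving out single trees moved the counts of changed genes strongly, as given with each count.

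The unique share of a gene, which the choice of genes used, ran from 0 to 49.98% with a median of 36.3%. It was 0 in 11 genes, under 10% in 26 genes including those 11, between 10 and 40% in 179, and between 40 and 50% in 114. Reads summed over the libraries ran from 80 to 52913 per gene with a median of 768. On the authors' RPKM scale, which divides reads by gene span and library size, the mean level ran from 0.126 to 663 with a median of 2.75. Spans were 204 to 8258 bp with a median of 1945 bp. A second listed gene overlapped 23 of the 319 (7.21%). The library strand is not stated in the labels or headers, and reads of overlapping genes may not be told apart.

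The limits of unique share and of read number had genes close to them on both sides in that measure. Just inside the share limit were genes on scaffold 5 at 8682415 (49.98% of 2137 reads) and on scaffold 4 at 18792869 (49.97% of 17227 reads), and just outside it were genes on scaffold 1 at 9548896 and on scaffold 4 at 12669775, both at 50%. Genes on scaffold 4 at 20228535 and 922500 entered with 80 and 82 reads, and genes on scaffold 8 at 7361180 and on scaffold 5 at 9203812 stayed out with 79 each. The most abundant genes kept had 359 CPM (scaffold 1, 40304211) and 314 CPM (scaffold 6, 22318527). CPM is a gene's count relative to the size of its library, which was scaled by the trimmed mean of M values. The least abundant genes that met the other limits but were left out had 463 and 487 CPM, both on scaffold 1 (38545200 and 38509069).

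**Figure D1:**
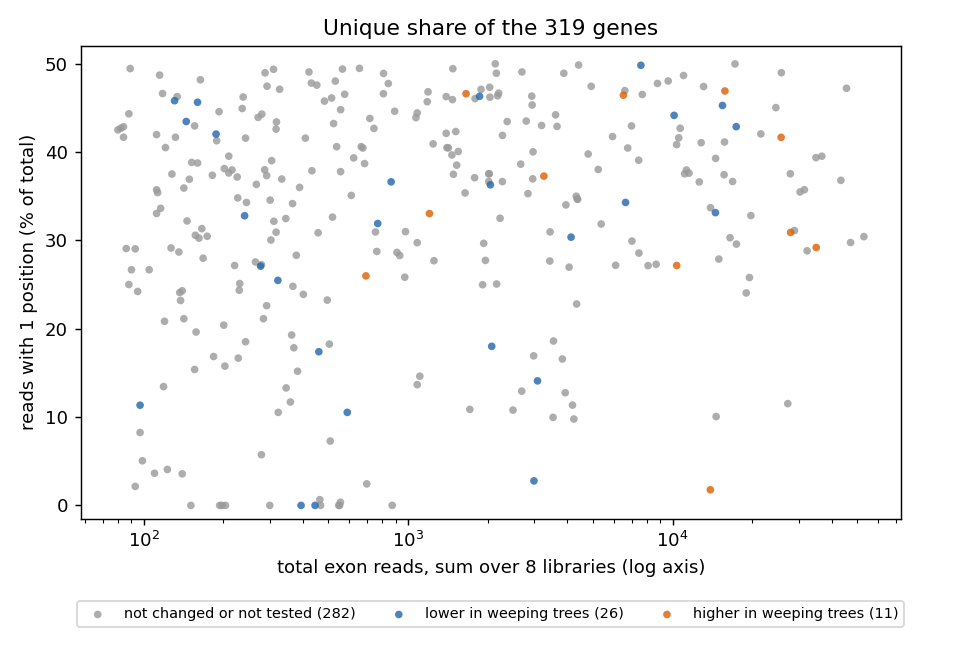
Share of unique reads (% of total exon reads, vertical) against total exon reads summed over 8 libraries (horizontal, log axis), 1 point a gene, for the 319 genes. Blue points mark 26 genes lower and orange points 11 genes higher in weeping trees by edgeR's quasi-likelihood test on total reads, and the decreases lie from 0 to near 50% while 1 increase lies at 1.76% and the other 10 between 26 and 46.9%.

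In the plot of unique share against reads, most genes lie above 20% and the sparse band near 0 holds genes with few reads as well as 1 gene with 13899 reads. The 319 genes were spread unevenly over the scaffolds. They are set here against the genes of each scaffold with at least 80 total reads, the 200 most abundant genes left out. There were 80 among 4032 such genes of scaffold 1, 59 among 2049 of scaffold 4 and 39 among 1756 of scaffold 5. On scaffold 6 there were 61 among 2477, on scaffold 7 24 among 1915 and on scaffold 8 56 among 1825. The share was highest on scaffold 8 (3.07%) and lowest on scaffold 7 (1.25%).

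Many of these genes stood beside another of them, written here as a tandem cluster when at most 20 kb separated their spans. There were 65 such clusters with 148 genes (46.4%), 51 of 2 genes, 10 of 3 and 4 of 4, and the other 171 genes stood alone. Clusters extended over 3.98 to 41.3 kb with a median of 13.3 kb, and 31 held no other listed gene. In 6 clusters 2 or more genes had exactly the same span in bp. Reads within a cluster were uneven: the gene with most reads held a median of 74.1% of its cluster's reads, and at least 90% in 16 clusters. With a gap of up to 50 kb, 77 arrays held 195 genes, the largest of them 8 genes.

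Between weeping and standard trees, changed genes were about as frequent among these genes as in the whole table. By edgeR's quasi-likelihood test on total reads, with Benjamini-Hochberg adjusted p under 0.05 over all genes tested, 37 of 314 tested genes changed (11.8%), against 11.5% of the 18520 genes tested in the table. Of the 37, 26 were lower and 11 higher in weeping trees. Of all genes tested, 6.18% were lower and 5.33% higher, so decreases were 70.3% of the changes here and 53.7% of all changes. The difference between those shares was not tested. Genes of the same scaffolds with a unique share of 50 to 90% also changed mostly downward, 105 lower and 37 higher. With a unique share of 90% or more, 737 were lower and 683 higher. The median log2 fold change, weeping over standard, was -0.19 over the 314 genes and 0.01 over all tested genes. In bulk tissue, fewer cells of a type and less RNA per cell cannot be told apart.

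Larger changes were also mostly decreases, here as in the table. With a change of 2-fold or more 25 genes passed, 21 downward and 4 upward, against 2.9% and 0.934% of all genes tested, and the 6 with 4-fold or more were all lower (0.686% lower and 0.081% higher in all). Among tested genes of the same scaffolds, 7.96% of these genes passed with 2-fold or more, 7.82% of genes with a unique share of 50 to 90%, and 3.38% of genes with 90% or more. The median change of genes that passed was -1.51 downward and 0.84 upward on the log2 scale here, -1.33 and 0.86 in the middle class and -0.89 and 0.61 in the last, so the larger size of decreases was shared by all 3 classes. Per scaffold, 5 of 78 tested genes changed on scaffold 1 (6.41%, against 10.3% of all tested genes there), 10 of 58 on scaffold 4 (17.2% against 12.4%), 6 of 39 on scaffold 5 (15.4% against 12.2%), 11 of 60 on scaffold 6 (18.3% against 12%) and 5 of 55 on scaffold 8 (9.09% against 11.6%). On scaffold 7 edgeR called 0 of 24 (11.2% of all there), with 4 at an unadjusted p under 0.05, and DESeq2 called 1 and limma-voom 0. These differences between scaffolds were not tested. The 8 libraries did not overlap between the groups in 55 genes, 17.5% of those tested, against 18.7% in the table. The count of 37 depended on single trees: it was 14 without standard tree 7, 8 without tree 8, 11 without tree 10, 12 without weeping tree 1, 10 without tree 3 and 69 without tree 4. Without weeping tree 4 this was 21.8% of the tested genes here, against 20.9% of all genes tested. Without standard tree 9 the count was 53, 16.8% against 18.1%. Without weeping tree 2 it was 0 by edgeR, with 82 genes at an unadjusted p under 0.05, while all 37 kept their direction. In that fit 0.107% of the genes in the table passed. For the fits without standard trees 7, 8 or 10 or weeping trees 1 or 3, the share of all genes was not taken. Those counts therefore do not set these genes apart from the table. Within lane 6 alone 37 genes passed, 21 of them among the first 37, and 6 of the 37 were higher. In that fit 11.6% of the tested genes here passed, against 9.9% of all genes tested.

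**Figure D2:**
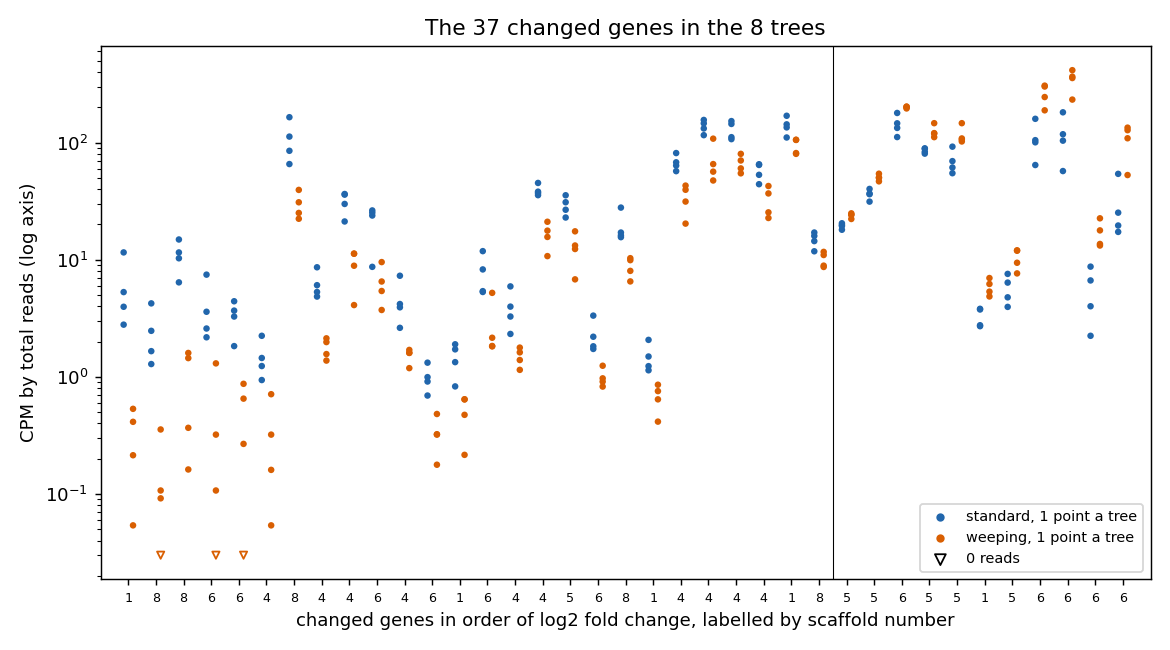
CPM by total reads (vertical, log axis) of the 37 changed genes in each tree, 4 standard trees in blue and 4 weeping trees in orange, with triangles for 0 reads. Genes stand in order of log2 fold change and carry their scaffold number, and the line separates 26 decreases in weeping trees from 11 increases.

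The plot of changed genes in the 8 trees shows decreases in genes of low and of high level, and 3 of the genes had a weeping tree at 0 reads. The decrease of smallest p was in ppa016834m.g on scaffold 4 (7274965 to 7278249), a gene with 10.5% unique reads. It had 6.06, 8.62, 5.30 and 4.84 CPM in standard trees 7, 8, 9 and 10 and 1.56, 1.38, 1.98 and 2.13 CPM in weeping trees 1, 2, 3 and 4. Every weeping tree lay below every standard tree. The log2 fold change was -1.82 with a standard error of 0.24 (edgeR adjusted p = 0.0127), and the gene had too few unique reads for that test.

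The largest fitted decrease among changed genes was in ppa004464m.g on scaffold 1 (33709171 to 33710903), the last of a cluster of 4 (28.9 kb). It had 2.79, 3.96, 11.5 and 5.29 CPM in the standard trees and 0.0539, 0.413, 0.214 and 0.533 CPM in the weeping trees, in the same tree order. No weeping tree came near the standard trees, and the log2 fold change was -4.25 with a standard error of 0.62 (edgeR adjusted p = 0.0138). Of its reads 17.4% were unique, 0 of them in weeping trees 1, 3 and 4.

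In its cluster, which also spans 7 other listed genes, the weeping trees stood in a graded order. The gene at 33705507, which held 74.0% of the cluster's reads, had 30.4, 30.8, 35.2 and 33.9 CPM in the standard trees and 0.593, 11.7, 13.1 and 29.5 CPM in the weeping trees. Weeping tree 4 was close to the standard trees, weeping tree 1 was near 0, and the test was not passed (log2 fold change -1.25, standard error 0.70, edgeR adjusted p = 0.253). The genes at 33682006 and 33685676 were also lowest in weeping tree 1, at 0.216 and 0.0539 CPM, and did not pass (edgeR adjusted p = 0.125 and 0.299). Summed over the 4 genes the level was 45.6 ± 7.85 CPM in standard and 17 ± 14.4 CPM in weeping trees (SD, n = 4 each). The log2 ratio of these means was -1.42 by total and -1.33 by unique reads, and the groups did not overlap. By total reads it was -2.09 without weeping tree 4 and -1.03 without weeping tree 1.

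A pair of genes of 486 bp each on scaffold 8, 26.8 kb from end to end, fell together. No sequence was compared, and 6 other listed genes lie between them. The first (15824757 to 15825242) had 85.1, 165, 65.5 and 112 CPM in the standard trees and 25.1, 30.9, 22.4 and 39.4 CPM in the weeping trees. Its log2 fold change was -1.86 with a standard error of 0.29 (edgeR adjusted p = 0.0149), and unique reads, 44.1% of its total, gave the same -1.86. The second (15851040 to 15851525) had 11.5, 14.9, 6.41 and 10.3 CPM in the standard trees and 0.162, 0.367, 1.44 and 1.60 CPM in the weeping trees. Its log2 fold change was -3.61 with a standard error of 0.57 (edgeR adjusted p = 0.0152) and -3.46 by unique reads. Neither gene overlapped between the groups. Per length the first was at 191 RPKM and the second at 19.3 RPKM in standard trees, and at 52.8 and 1.62 RPKM in weeping trees.

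On scaffold 4 genes of moderate and of very low unique share fell. A gene of 5685 bp at 17111871, with 30.4% unique reads, had 45.2, 35.6, 38.1 and 37 CPM in the standard trees and 10.7, 15.6, 21.1 and 17.7 CPM in the weeping trees. It fell by 1.26 on the log2 scale (standard error 0.19, edgeR adjusted p = 0.0141) and by 1.32 with unique reads alone. A gene of 5716 bp at 15845693 had only 2.77% unique reads, with 35.9, 29.9, 21.2 and 36.4 CPM in the standard trees against 4.10, 11.3, 11.2 and 8.88 CPM in the weeping trees. Both genes kept their groups apart. The second fell by 1.80 (standard error 0.31, edgeR adjusted p = 0.0169) and by 2.30 with its few unique reads (edgeR adjusted p = 0.0355). Its neighbour at 15868278, of 5718 bp and 0.647% unique reads, had 1.49 to 5.11 CPM in standard trees and 1.02, 1.38 and 1.44 CPM in weeping trees 1, 2 and 3 but 8.41 CPM in weeping tree 4. That neighbour did not pass (log2 fold change -0.13, edgeR adjusted p = 0.916).

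Among other decreases, the gene at 2355524 on scaffold 8 had 4.24, 2.47, 1.66 and 1.29 CPM in the standard trees and 0, 0.0917, 0.107 and 0.355 CPM in the weeping trees. It was at or near 0 in every weeping tree (fitted log2 fold change -4.11, standard error 0.68, edgeR adjusted p = 0.0162), and it had 42.0% unique reads. The gene at 8411971 on scaffold 4 was far more abundant, with 153, 144, 111 and 107 CPM against 70.3, 60.2, 54.6 and 80.1 CPM. It fell by 0.96 on the log2 scale (standard error 0.16, edgeR adjusted p = 0.0162) with no overlap. A pair of 1399 bp each on scaffold 6, at 9516781 and 9570337, fell by 2.84 and 3.21 (edgeR adjusted p = 0.0309 and 0.0415), both with 0 reads in weeping tree 1.

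Genes with no unique read at all cannot be followed by reads of their own. Of the 11 such genes, 2 passed, both on scaffold 4 and both of 3366 bp (11.5% of all genes tested in the table passed). The gene at 20957380 had 4.18, 7.29, 3.92 and 2.62 CPM in the standard trees and 1.19, 1.70, 1.61 and 1.60 CPM in the weeping trees. The gene at 20990058 had 3.27, 5.92, 3.98 and 2.32 CPM against 1.62, 1.15, 1.39 and 1.78 CPM. Neither overlapped between the groups. Their log2 fold changes were -1.56 and -1.38 (standard errors 0.32 and 0.31, edgeR adjusted p = 0.024 and 0.0292). All reads of both genes also matched elsewhere, and the table does not record where. The 2 genes may share reads with each other, so their calls may not be independent.

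These 2 genes belong to the largest array, 8 genes over 132 kb with 1 other listed gene. Another pair with no unique read, of 3783 bp each at 21043472 and 21075204, had log2 fold changes of -0.82 and -0.93 and did not pass (edgeR adjusted p = 0.0803 and 0.0674). The gene at 21026750, with 42.7% unique reads, held 67.7% of the array's reads and had 64.9 to 77.6 CPM in standard and 62.2 to 76.0 CPM in weeping trees. The gene at 20985645 was high in 1 tree of each group, with 32.3 CPM in standard tree 8 and 18.9 CPM in weeping tree 1 against 3.62 to 5.94 CPM elsewhere. The summed level was 113 ± 14.1 CPM in standard and 97.8 ± 3.48 CPM in weeping trees (SD, n = 4 each), with overlap, and the ratio of the sums was -0.21 on the log2 scale by total and -0.01 by unique reads. Genes with no unique read add nothing to the sum by unique reads, so the 2 ratios cover different sets of genes.

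Fewer genes rose, and the rises of smallest p were modest. The gene ppa003813m.g on scaffold 5 (16140813 to 16144026) had 80.4, 88.5, 89.3 and 83.3 CPM in the standard trees and 146, 120, 111 and 119 CPM in the weeping trees. Its neighbour at 16130335 had 31.3, 36.7, 40.2 and 36.2 CPM against 50.0, 54.2, 50.3 and 46.7 CPM. Both were higher in every weeping tree than in any standard tree. They rose by 0.54 and 0.48 on the log2 scale (standard errors 0.10 and 0.09, edgeR adjusted p = 0.0193 and 0.0221), and by 0.49 and 0.47 with unique reads. The summed level of the pair was 122 ± 7.66 CPM in standard and 175 ± 15.5 CPM in weeping trees (SD, n = 4 each).

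A larger rise was seen on scaffold 6, where 3 genes of 3550, 3557 and 3559 bp lie within 69.5 kb. The first, ppa021137m.g (3651004 to 3654553), had 57.1, 104, 181 and 118 CPM in the standard trees and 365, 415, 356 and 233 CPM in the weeping trees. The gene at 3692706 had 64.3, 101, 160 and 105 CPM against 306, 301, 245 and 189 CPM. In both, standard tree 9 was the highest of its group and weeping tree 4 the lowest of its group, with no overlap. The gene at 3716904 had 17.3, 19.6, 54.1 and 25.2 CPM against 128, 134, 109 and 52.8 CPM, where weeping tree 4 lay just under standard tree 9. The log2 fold changes were 1.57, 1.28 and 1.87 (standard errors 0.32, 0.26 and 0.41, edgeR adjusted p = 0.0241, 0.0249 and 0.0285). Unique reads, 27.2 to 30.9% of the total, gave 1.47, 1.17 and 1.82. Summed over the 3 genes, the level was 251 ± 107 CPM in standard and 708 ± 166 CPM in weeping trees (SD, n = 4 each).

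The other genes that rose included the gene at 6881166 on scaffold 6, with 6.65, 2.24, 8.72 and 4.00 CPM in the standard trees and 17.8, 13.6, 13.2 and 22.6 CPM in the weeping trees. It rose by 1.63 on the log2 scale (standard error 0.37, edgeR adjusted p = 0.0307), and the groups stayed apart. The gene at 8429887 on scaffold 5, with 1.76% unique reads, had 54.8, 69.4, 92.3 and 61.2 CPM against 146, 102, 108 and 106 CPM. Its log2 fold change was 0.74 by total reads (standard error 0.18, edgeR adjusted p = 0.0345) and 1.31 by unique reads (standard error 0.29, edgeR adjusted p = 0.0287). A gene at 26471935 on the same scaffold 6, which overlaps another listed gene, was higher with 196 to 203 CPM in weeping and 111 to 179 CPM in standard trees (log2 fold change 0.49, edgeR adjusted p = 0.0478).

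Each of these calls depends on the trees included. All were lost without weeping tree 2. The 7 that were lost in no other fit with a tree left out were all decreases: ppa016834m.g, ppa004464m.g, the pair of 486 bp on scaffold 8, the genes at 17111871 and 15845693 on scaffold 4 and the gene at 2355524 on scaffold 8. The gene at 8411971 was lost without standard tree 8 as well. The pair with no unique read on scaffold 4 was also lost without standard trees 7 or 8 or weeping trees 1 or 3. The call of ppa003813m.g was also lost without standard trees 7, 8 or 10, and that of its neighbour without standard trees 8 or 10 or weeping trees 1 or 3. The calls of the first 2 genes of the array on scaffold 6 were also lost without standard trees 8 or 10 or weeping trees 1 or 3, and that of its last gene without those or standard tree 7. The genes at 6881166 and 8429887 kept their call only in the fits without standard tree 9 and without weeping tree 4, and the gene at 26471935 only in the fit without standard tree 9. The gene at 9516781 kept it without standard tree 9 and without weeping trees 1 or 4, and the gene at 9570337 only without weeping tree 4. In lane 6 alone, where 16 of the 37 calls were lost, these included the genes at 20957380, 20990058, 8429887, 6881166, 9516781 and 26471935 (edgeR adjusted p = 0.0626, 0.0693, 0.0666, 0.0771, 0.0908 and 0.141).

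The same test was run on unique reads, taken as reads with 1 position in the reference. Reads of a copy that the reference lacks may still be among them. In 219 of the 319 genes there were enough unique reads, and 28 of them changed, 18 lower and 10 higher, which is 12.8% against 11.7% of the genes tested in the table (6.27% lower and 5.47% higher). Of the 37 genes changed by total reads, 8 had too few unique reads to be tested, 24 passed with unique reads as well and 5 did not. All 29 that could be tested had the same direction by both counts. Among all 219 genes, 205 had the same direction by both counts. Total reads contain the unique reads, so this likeness is in part built in. The count of 28 was 8, 4 and 5 without standard trees 7, 8 and 10, 5, 0, 6 and 50 without weeping trees 1, 2, 3 and 4, and within 1.5 times without standard tree 9. For these fits by unique reads the share of all genes was not taken.

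**Figure D3:**
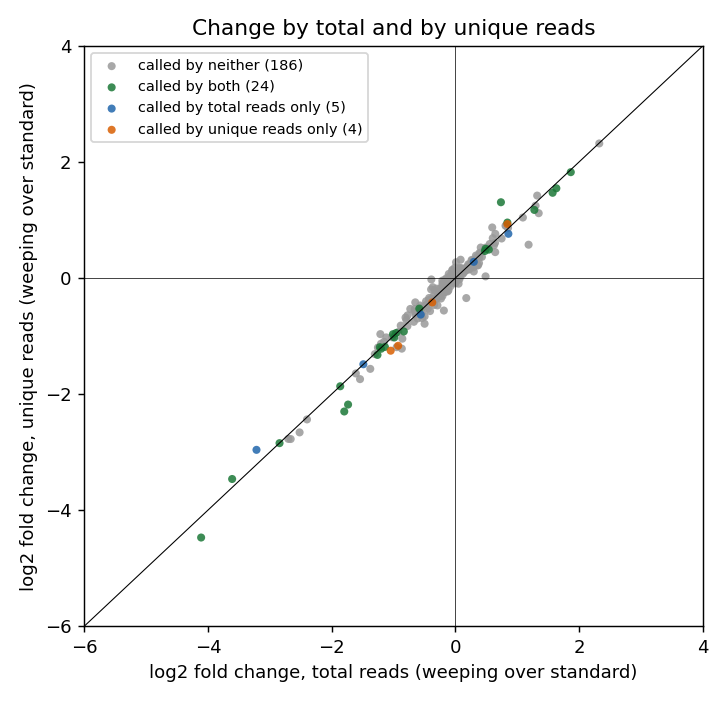
Log2 fold change, weeping over standard, by unique reads (vertical) against that by total reads (horizontal) for the 219 genes tested by both, with the line of equal change. Green points are the 24 genes called by both counts, blue the 5 called by total reads only, orange the 4 called by unique reads only and grey the rest, and 205 of the 219 points lie in the quadrants of equal sign.

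In the plot of both fold changes most points lie close to the line of equal change. Among the 29 changed genes tested by both counts, 27 differed by less than 0.5 on the log2 scale, and the largest difference was 0.57, in the gene at 8429887 on scaffold 5. The genes that passed by unique reads alone were at 9284431 and 8412495 on scaffold 5, at 27999241 on scaffold 1 and at 18514100 on scaffold 4. Their edgeR adjusted p by total reads was 0.0646, 0.0607, 0.0792 and 0.0546 and by unique reads 0.0417, 0.0439, 0.0292 and 0.0371. Those that passed by total reads alone were at 13322207 on scaffold 8, at 11452443 and 16647154 on scaffold 5, and at 9570337 and 17531821 on scaffold 6, with edgeR adjusted p by unique reads of 0.0589, 0.0536, 0.124, 0.0514 and 0.0834. Most of these 9 genes thus lay near the threshold by both counts.

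Shared reads tested by themselves gave 22 changed genes among 293 tested, 18 lower and 4 higher, which is 7.51% against 4.76% of the 2334 genes of the table that had enough shared reads (3.43% lower and 1.33% higher). That count was 5, 4 and 8 without standard trees 7, 8 and 10 and 5, 0, 1 and 37 without weeping trees 1, 2, 3 and 4, and 10 in lane 6 alone. For these fits by shared reads the share of all genes was not taken. Of all 319 genes, 42 passed by at least one of the 3 counts and 15 by all 3. These combined counts were not made over the whole table, so they do not set these genes apart from it.

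Whether unique and shared reads of a gene changed by different amounts was tested directly, as an interaction of read kind with habit in edgeR with the tree as a block. Of 302 genes tested 0 passed, and 15 (4.97%) had an unadjusted p under 0.05. Of all genes tested, 0.0868% passed and 1.61% had an unadjusted p under 0.05. In a further fit, restricted to genes with enough reads of both kinds and chosen after seeing the data, 0 of 219 passed by edgeR, against 0.447% of all genes tested. In that fit 11 had an unadjusted p under 0.05 (5.02%), against 6.75% of all. A test that is not passed does not show that both kinds changed alike. The smallest p (0.000192 unadjusted, edgeR adjusted p = 0.156) was at 10691527 on scaffold 6. Its total reads were 8.69, 25.2, 26.3 and 23.8 CPM in the standard trees and 3.72, 9.54, 5.4 and 6.51 CPM in the weeping trees. Its unique reads were 2.68, 9.65, 11.8 and 8.55 CPM and 0.593, 2.98, 1.5 and 2.07 CPM. Standard tree 7 overlapped the weeping trees by both counts. The gene was lower by total reads (log2 fold change -1.73, standard error 0.38, edgeR adjusted p = 0.029) and by unique reads (log2 fold change -2.18, standard error 0.53, edgeR adjusted p = 0.0338). The call by total reads was lost without standard trees 8 or 10 or weeping trees 1, 2 or 3, and in lane 6 alone (edgeR adjusted p = 0.0921).

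Reads that the genes of a cluster share with each other stay inside the cluster's sum, though the table does not record which genes share them. By summed total reads, all weeping trees were below all standard trees in 15 of the 65 clusters and above them in 5 (30.8% in all, where 18.7% of single tested genes did not overlap), and the groups overlapped in 45. A sum over genes is not a single gene, so these shares are not compared. By unique reads 12 clusters were lower and 6 higher without overlap, and 15 clusters held apart by both counts. These sums are a description and carry no test. The log2 ratio of the group means ran from -2.93 to 1.49 with a median of -0.18. Of 37 changed genes 21 lay in clusters and 16 stood alone. Changed genes occurred in 19 clusters, but only 2 clusters, with the gap of 20 kb, held more than 1. In the 50 pairs with both genes tested, both fold changes by total reads were below 0 in 24, above 0 in 12 and opposite in 14. Genes of a pair may share reads with each other, so likeness of direction may in part be built in.

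**Figure D4:**
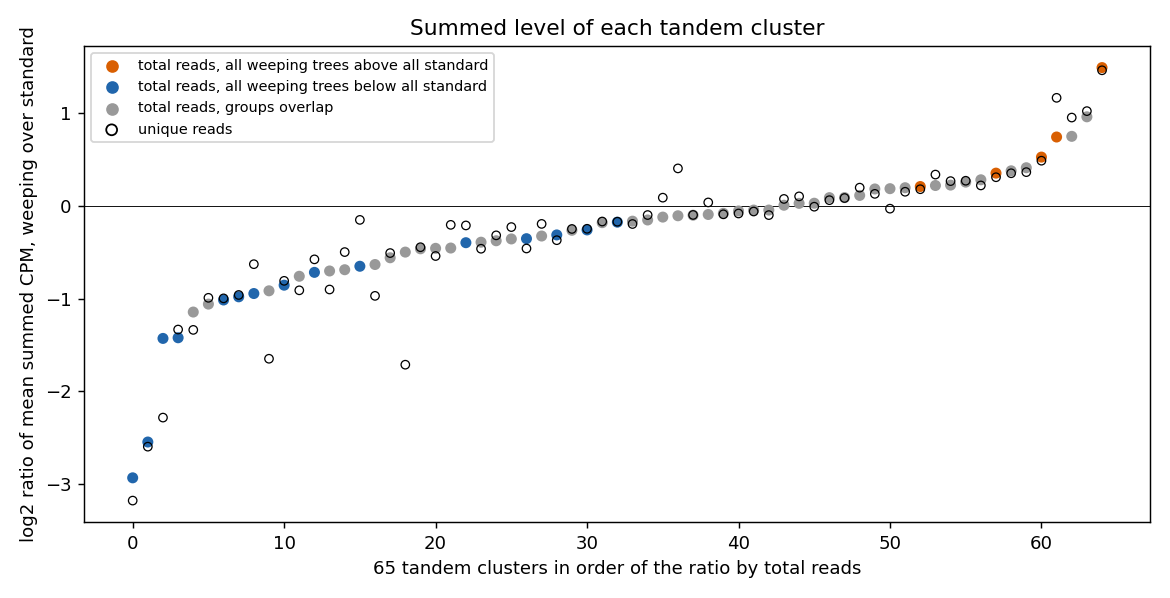
Log2 ratio of mean summed CPM, weeping over standard (vertical), of the 65 tandem clusters in order of that ratio, with filled points for total and open points for unique reads. Blue marks the 15 clusters with all weeping trees below all standard trees, orange the 5 with all above and grey the 45 whose groups overlapped, and the ratios run from -2.93 to 1.49.

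The plot of summed levels by cluster shows that ratios by total and unique reads mostly lay together and that the lowest ratios were larger in size than the highest. The lowest was a pair of genes of 543 bp each within 4.41 kb on scaffold 6 (18623023 to 18627429), with 6.33, 3.39, 1.21 and 1.63 CPM in the standard trees and 0, 0.0459, 0.535 and 1.07 CPM in the weeping trees. The groups stood apart by little, between standard tree 9 and weeping tree 4. The first gene did not pass (edgeR adjusted p = 0.0552) and the second had too few reads to be tested.

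In the other clusters of 3 or 4 genes that were named by rule, the sums overlapped between the groups. In 4 genes on scaffold 6 from 9019627 to 9052568 a short and a long gene alternate (1357, 7143, 1471 and 7148 bp). Their sum was 49.2 ± 5.90 CPM in standard and 45.8 ± 5.71 CPM in weeping trees (SD, n = 4 each). None of the 4 passed (edgeR adjusted p = 0.219 to 0.842). The 3 genes from 1700827 to 1732214 on scaffold 8 summed to 415 ± 6.82 and 399 ± 66.6 CPM. The 3 genes from 16590739 to 16610299 on scaffold 1, of which the last 2 overlap each other, summed to 241 ± 32.3 and 256 ± 22.7 CPM. The 3 genes from 13782679 to 13817389 on scaffold 6 summed to 166 ± 18.1 and 138 ± 15.3 CPM, all 3 with a fold change below 0 and none past the test (edgeR adjusted p = 0.155 to 0.769). In the 4 genes from 12801883 to 12830099 on scaffold 5, 84.1% of the reads lay in the gene of 403 bp at 12803895, with 50.7 CPM in standard tree 9 and 24.8 to 25 CPM in the other standard trees. That stretch also holds 5 other listed genes.

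Genes of a cluster also had fold changes of opposite sign. In the 4 genes from 11433341 to 11459705 on scaffold 5, the gene at 11452443 had 4.77, 6.38, 7.56 and 3.95 CPM in the standard trees and 12, 11.9, 9.42 and 7.64 CPM in the weeping trees. It rose by 0.86 on the log2 scale (standard error 0.23, edgeR adjusted p = 0.0473) with no overlap, a call kept without standard tree 9 and without weeping tree 4 and lost without any other tree. The gene at 11433341 had 6.06, 4.82, 3.15 and 2.97 CPM and 0.971, 0.550, 1.66 and 3.43 CPM and did not pass (log2 fold change -1.38, edgeR adjusted p = 0.104). The sum of the cluster overlapped between groups, at 12.3 ± 1.84 and 13.9 ± 1.29 CPM (SD, n = 4 each). Within the extent of this cluster lie 4 other listed genes.

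Several of the genes were high in some trees and much lower in others without regard to habit. The genes in this paragraph other than those on scaffold 8 from 10701099 were chosen after their values were seen. On scaffold 8 the genes of 778 and 792 bp at 10701099 and 10724861 have 10.0 and 9.77% unique reads. The first had 54.2 to 131 CPM over all 8 trees. The second had 53.3, 2.76, 32.6 and 3.31 CPM in the standard trees and 59.0, 6.38, 31.2 and 42.7 CPM in the weeping trees, low in standard trees 8 and 10 and weeping tree 2. Its unique reads alone were 1.99 ± 2.19 and 3.66 ± 2.52 CPM in the groups (SD, n = 4 each). On scaffold 8 the gene at 11902788 had 28.6, 1.90, 36.0 and 0.692 CPM and 228, 0.596, 80.4 and 27.9 CPM, low in the same 3 trees. On scaffold 7 neighbours of 1736 and 1735 bp alternated. The gene at 19030172 had 1.45, 23.1, 7.34 and 23.7 CPM in the standard trees and 57.7, 68.3, 7.22 and 5.80 CPM in the weeping trees. The gene at 19041634 had 9.92, 6.60, 37.2 and 12.5 CPM and 20.3, 1.19, 39.6 and 36.5 CPM. By these CPM, of genes of nearly equal span, the first was the higher in standard trees 8 and 10 and weeping trees 1 and 2 and the second in the other 4 trees, and neither passed (edgeR adjusted p = 0.369 and 0.682).

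The array with most reads over all 8 trees was on scaffold 1, with 3 genes of 472, 471 and 448 bp between 40304211 and 40335413, also chosen after their values were seen. In weeping trees alone it was not the most abundant, at a summed 249 ± 268 CPM against 708 ± 166 CPM for the array of 3 genes on scaffold 6 (SD, n = 4 each). The first had 972, 579, 422 and 470 CPM in the standard trees and 4.15, 20.5, 136 and 267 CPM in the weeping trees. The second had 836, 335, 346 and 209 CPM and 1.94, 5.6, 139 and 119 CPM, and the last 738, 319, 264 and 266 CPM and 2.05, 7.66, 141 and 151 CPM. All 3 were highest in standard tree 7 and lowest in weeping trees 1 and 2, and no weeping tree reached the standard trees. Per length they were at 1127, 798 and 772 RPKM in standard and 198, 125 and 149 RPKM in weeping trees. The spread within the weeping group was wide, and none passed (log2 fold changes -2.52, -2.70 and -2.40, standard errors 0.99, 1.13 and 1.09, edgeR adjusted p = 0.122, 0.141 and 0.17). Weeping trees 1 and 2 were in lane 6 and weeping trees 3 and 4 in lane 8, so in this array lane and tree cannot be told apart.

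**Figure D5:**
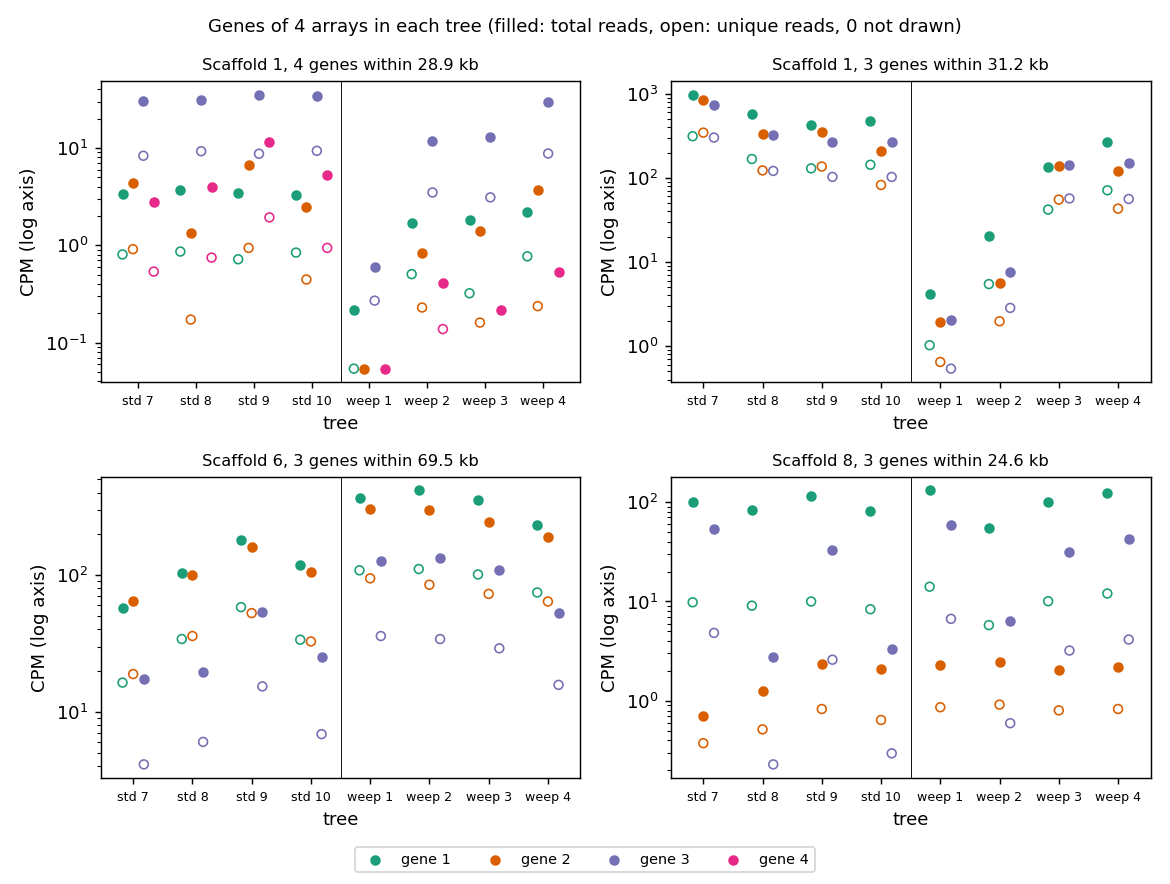
CPM (vertical, log axis) of each gene in each of the 8 trees (horizontal) for 4 arrays, filled points by total and open points by unique reads, 1 colour a gene, with values of 0 not drawn. In the array of scaffold 6 all 3 genes rose in weeping trees, in both arrays of scaffold 1 weeping tree 1 was the lowest tree, and in the array of scaffold 8 gene 3 was low in standard trees 8 and 10 and in weeping tree 2.

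In the plot of 4 arrays the unique reads of most genes followed their total reads at a lower level from tree to tree. Total reads contain the unique reads, so this is in part built in. The sparse gene at 33709171 on scaffold 1 had 0 unique reads in weeping trees 1, 3 and 4, which are not drawn. All 319 genes together held 1.16, 0.971, 0.969 and 0.961% of all reads in standard trees 7, 8, 9 and 10 and 0.862, 0.835, 0.903 and 0.927% in weeping trees 1, 2, 3 and 4. The unique share of their reads was 36.6, 35.4, 34.8 and 36.0% in the standard trees and 34.1, 34.3, 34.7 and 35.2% in the weeping trees. The mean was 35.7 ± 0.751% against 34.6 ± 0.486% (SD, n = 4 each), with overlap between the groups. Over all genes the order was the other way, 94.4 ± 0.230% in standard and 95.1 ± 0.0692% in weeping trees.

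Levels of these genes spread more between trees of a group than those of genes with mostly unique reads. The median SD of log2 CPM within groups was 0.425 for the 319 genes, 0.298 for 1178 genes of the same scaffolds with a unique share of 50 to 90%, and 0.196 for 12557 genes with 90% or more. Read depth moved with these classes, since the median sum was 768, 1486 and 3286 reads. In genes of 80 to 800 reads the medians were 0.481, 0.377 and 0.314, in genes of 800 to 8000 reads 0.414, 0.237 and 0.179, and in genes above 8000 reads 0.253, 0.223 and 0.159. The order was thus the same within each range of reads. Of the genes tested, 12.2% changed in the middle class and 11.4% in the class of 90% or more, with 105 lower and 37 higher in the former and 737 lower and 683 higher in the latter. These class values are descriptions, and the differences between classes were not tested.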

How the data were processed

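RNA of 8 trees was sequenced, 4 standard and 4 weeping, and each column was assigned to the tree whose group and number it names. The authors deposited 1 table that holds, per the file headers, counts per gene as total exon reads and as unique exon reads, and RPKM values, made from trimmed reads. The headers do not define unique reads, which were taken as reads with 1 position. The aligner, its handling of reads with several positions, the genome build and the strand are not given in the labels or headers. RPKM in the deposited table divides by the whole gene span. Positions are those of the table's scaffolds, counted from 1. Another 104 columns of values per library were not used.

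Shared reads are total minus unique reads. Each count was fitted over the whole table by the quasi-likelihood test of edgeR 4.0.16 under R 4.3.3, with growth habit as the term, TMM scaling, a filterByExpr minimum of 10 reads and Benjamini-Hochberg adjustment at 0.05. The filter kept 18520 genes for total reads and removed 9344. A standard error is the log2 fold change divided by the root of the F statistic. The interaction fit used 16 columns, unique and shared reads of each tree. Sums over genes carry no p. The most alike libraries, of weeping trees 2 and 3, had a chi-square per degree of freedom of 15.6, far above counting noise, and every library counts as a replicate. The labels call the trees biological replicates.

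The genes, the lists and the tests were chosen with earlier results of these data known. Genes were named by these rules: the 8 largest clusters of 3 or more genes, up to 12 genes in each direction of smallest p without overlap, up to 10 genes whose calls by total and unique reads differ, and genes at the limits. Others named with values, which are neighbours of these, the array of 8 genes, the last gene of the array of 3 on scaffold 6, a pair on scaffold 6 at 9516781, the pair of lowest ratio and the gene of smallest interaction p, were chosen after their values were seen. Lists of named genes could not be made, since the identifiers match no names, and no sequence is given. Alternatives were RLE scaling, no filter, a minimum count of 50, DESeq2 1.42.0, limma-voom (limma 3.58.1), lane 6 alone, other limits for the genes and clusters, and each tree left out. The interaction fit with enough reads of both kinds was added after seeing the data. Scripts were tested on simulated data. Python 3.11.15 and matplotlib 3.10.9 drew the figures. At a sum of 80 reads a gene has about 10 reads a library, which limits the precision of the sparsest genes. SDs and p-values rest on 4 trees a group.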

Additional observations from a re-analysis of the deposited data

Results flagged for a closer look

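Among 132 groups of 4 libraries examined for a single value far from the others, 7 held one, and chance gives about 1 in 20. The distance is the gap to the nearest other tree as a share of the group's range. Among standard trees, the gene at 12803895 on scaffold 5 had 50.7 CPM in tree 9 against 24.8 to 25 CPM (0.991 of the range), and the sum of its cluster from 12801883 had 56.4 CPM in the same tree against 32.0 to 34.4 CPM (0.902). The gene at 13329336 on scaffold 8, which was lower in weeping trees, had 27.9 CPM in standard tree 8 against 15.6 to 17.1 CPM (0.879). The 319 genes together held 1.16% of all reads in standard tree 7 against 0.961 to 0.971% (0.948). In that tree the 3 abundant genes of scaffold 1 at 40304211, 40326107 and 40334966 had 972, 836 and 738 CPM, their highest values, and their part in the total was not tested.

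Among weeping trees, tree 4 stood above the others in the gene at 1700827 on scaffold 8, with 364 CPM against 237 to 257 CPM (0.842), and in the gene at 17531821 on scaffold 6, with 5.21 CPM against 1.82 to 2.16 CPM (0.901). The gene at 8429887 on scaffold 5 had 146 CPM in weeping tree 1 against 102 to 108 CPM (0.858).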

How the results depend on the processing

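The count of 37 genes changed by total reads was 64 with DESeq2, which included all 37. With DESeq2 20.4% of the tested genes here passed, against 20.9% of all genes tested. The count was within 1.5 times under RLE scaling, both other filters, limma-voom and lane 6 alone. With a tree left out it ranged from 0 to 69 by total reads, from 0 to 50 by unique reads (28 with all trees) and from 0 to 37 by shared reads (22 with all trees). By total reads, 0.107% of all genes tested passed without weeping tree 2 and 20.9% without weeping tree 4. Shared reads gave 10 in lane 6 alone. The cause was not tested. A unique share limit of 25% chose 73 genes, 9 of them changed, and one of 75% chose 868 genes, 107 of them changed. With either limit 12.5% of the tested genes changed, against 11.5% of all genes tested. The interaction of read kind with habit called 0 genes by edgeR with all trees and under every alternative run. The sum of the cluster on scaffold 5 from 11433341 had a log2 ratio of 0.18 by total and -0.032 by unique reads. The other 7 cluster sums examined had the same sign by both counts. With a tree left out some moved more. The ratio on scaffold 8 from 10701099 was 0.217 with all trees, 0.022 without weeping tree 1 and 0.459 without weeping tree 2. That on scaffold 8 from 1700827 was -0.057 with all trees and 0.0035 without weeping tree 3. No other of these sums changed sign by total reads with a tree left out. Over 55 named genes, 802 values under alternatives were examined. In named genes that did not change, direction could differ between counts. The gene at 9043608 on scaffold 6 had a log2 fold change of -0.05 by total and 0.13 by unique reads. Of 369 values for the 25 changed genes among the 55, 0 reversed the call. The call was kept in 246 and lost in 123, 104 of those with a tree left out. Without weeping tree 2 all 25 missed it, at an edgeR adjusted p of 0.0549 to 0.136. No paired analysis was possible because the tree numbers of the groups differ. Too few unique reads kept 100 genes from that test, 11 of them with 0 unique reads at any depth reached here.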
